A study of Danio rerio with 6 samples.

Results

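Neutrophils and macrophages are the first white blood cells of the zebrafish embryo, and 9 genes that are used as their markers or that work in them were followed here in whole embryos exposed to 11,12-EET. The genes were spi1b, cebpa, csf1ra, mpx, lyz, ncf1, ptpn6, lcp1 and coro1a, and every probe set that the platform annotation gives 1 of these symbols alone was taken. This gave 14 of the 15502 probe sets tested, and all 9 genes, of 8793 genes measured, had at least 1. Transcript levels had been measured on 1-colour Affymetrix arrays in pools of whole dechorionated wild-type AB embryos at 36 h post fertilisation. Embryos of the EET group had been kept in 5 µM 11,12-EET from 24 to 36 h, those of the DMSO group in the solvent over the same hours, with 3 arrays in each group and 25 embryos per treatment group. The compound 11,12-EET is a lipid mediator formed when cytochrome P450 epoxygenases oxidise arachidonic acid. The labels call the arrays biological replicates without saying whether the pools came from separate clutches, so p-values measure the spread between these pools.

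In the embryo, the ETS transcription factor PU.1, encoded by spi1b, drives blood progenitors toward myeloid fates, with C/EBP factors acting in granulocyte formation. Macrophages depend on signals through the receptor of colony stimulating factor 1, and neutrophils fill granules with enzymes such as myeloperoxidase. Both cells kill microbes with an NADPH oxidase and crawl by remodelling actin filaments through actin-binding proteins. Leukocytes are a small part of a whole embryo, and in these bulk samples fewer cells of a type and less RNA per cell cannot be told apart.

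Neutrophil and macrophage genes did not pass the test between EET and DMSO embryos. Limma called 0 of the 14 probe sets at an adjusted p under 0.05, beside 0% of all 15502 probe sets, and 1 of the 14 had an unadjusted p under 0.05, beside 5.27% of all. In 2 of the 14, both lower in EET, the groups did not overlap, beside 11.7% of all. The brighter probe sets were the 7751 whose mean log2 level was 4.81 or more, the median of all. A separate limma fit of these alone, with p-values adjusted over them, called 0 of 6 members, beside 0.0774% of the 7751. At the brightest probe set of each gene, EET was above DMSO in 6 genes and below it in 3, by log2 differences that ran from -0.30 to 0.48 with their median at 0.09, where the median over all 8793 genes was 0.01. In 0 of the 9 genes did all EET arrays lie on 1 side of all DMSO arrays at that probe set, beside 12.1% of all genes. The 5 genes among the brighter probe sets were cebpa, mpx, lyz, lcp1 and coro1a. For these the 95% confidence intervals of the difference reached at most 0.40 below and 0.59 above 0 on the log2 scale, both at lyz. The median SD between replicates was 0.145 over the brighter probe sets and 0.982 over the dimmest 25%.

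**Figure D1:**
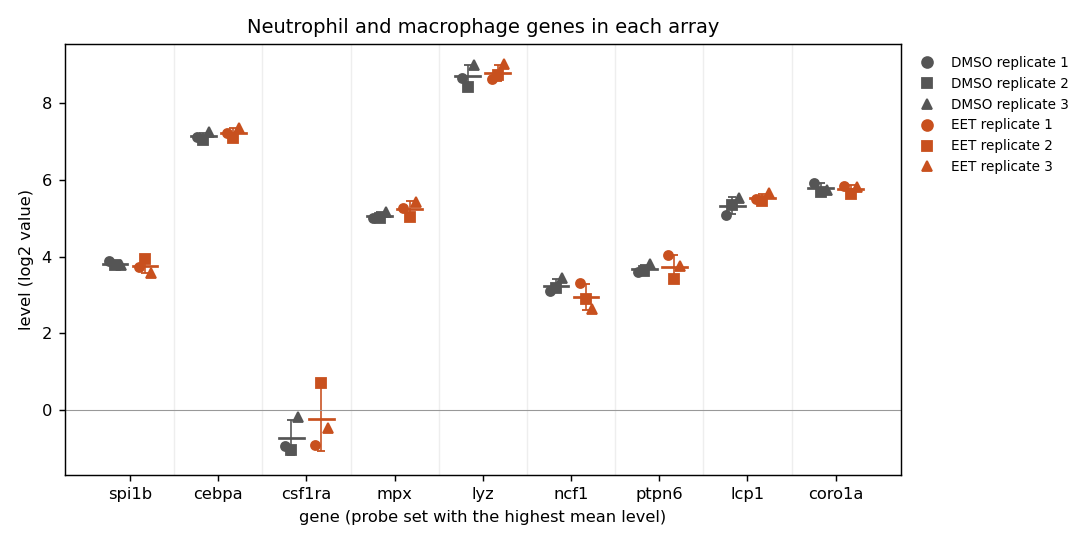
Level (log2 value, vertical axis) of the 9 genes in each of the 6 arrays, at the brightest probe set of each gene. Symbols mark single arrays, horizontal lines the group means and bars the SD (n = 3). DMSO and EET arrays overlap in every gene, and csf1ra lies around 0.

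The 2 transcription factor genes were measured at different levels, cebpa at percentile 83.5 of all probe sets and the brighter spi1b probe set at 35.8. The level of cebpa, which encodes a C/EBP factor of the granulocyte lineage that is also used in liver and other tissues, was 7.13, 7.04 and 7.24 in the DMSO arrays and 7.23, 7.11 and 7.35 in the EET arrays. The groups overlapped, with replicate 3 the highest array of each. EET minus DMSO was 0.09 ± 0.12 on the log2 scale (SE, as for all differences below, adjusted p = 0.953), a 1.07-fold ratio with a 95% interval of 0.871-fold to 1.30-fold. Without EET replicate 3 it was 0.03, without DMSO replicate 2 it was 0.04, without DMSO replicate 3 it was 0.14 and without EET replicate 2 it was 0.15. The brighter of the 2 probe sets of spi1b read 3.88, 3.78 and 3.78 in DMSO and 3.74, 3.93 and 3.57 in EET. EET replicate 2 was the highest and EET replicate 3 the lowest of the 6 arrays, so the groups overlapped. The group means differed by -0.06 ± 0.13 on the log2 scale (adjusted p = 0.972), a value that was 0.02 without EET replicate 3 and 0.0083 without both replicate 3 arrays.

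The dimmer probe set of spi1b read 2.56, 3.07 and 2.82 in DMSO and 2.45, 0.83 and 2.32 in EET. Every EET array lay below every DMSO array, but EET replicate 1 only by 0.11, and EET replicate 2 stood far below the other 5 arrays. This gave a log2 difference of -0.95 ± 0.47 (unadjusted p = 0.0955, adjusted p = 0.930), and without EET replicate 2 it was -0.43. Across the 6 arrays both spi1b probe sets correlated at -0.43, so they did not vary together.

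The receptor gene csf1ra encodes the receptor of colony stimulating factor 1 and in zebrafish is used by macrophages and by yellow pigment cells. Its level was -0.93, -1.03 and -0.19 in DMSO and -0.92, 0.70 and -0.47 in EET. Only EET replicate 2 was above 0, and the level was in the lowest 1.39% of all probe sets, so it is not known to be above background. EET exceeded DMSO by 0.48 ± 0.48 on the log2 scale (adjusted p = 0.943), and 0.02 without EET replicate 2.

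**Figure D2:**
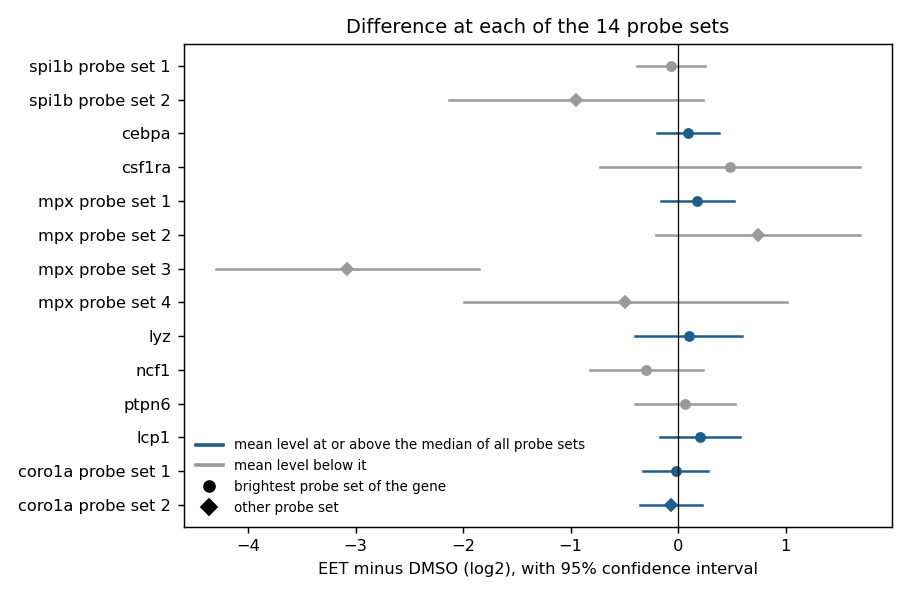
EET minus DMSO difference (log2, horizontal axis) at each of the 14 probe sets, with its 95% confidence interval from limma. Circles mark the brightest probe set of each gene and diamonds the others, and colour separates levels at or above the median of all probe sets from those below. The interval includes 0 at 13 probe sets, and lies from -4.30 to -1.86 at mpx probe set 3.

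Of the granule enzymes, lyz encodes lysozyme C, which cleaves bacterial cell walls and marks macrophages and neutrophils of the early zebrafish embryo. Its level was 8.67, 8.43 and 9.003 in DMSO and 8.62, 8.73 and 9.04 in EET. In both groups replicate 3 was the highest array, and the groups overlapped. EET minus DMSO was 0.10 ± 0.20 on the log2 scale (adjusted p = 0.972), a 1.07-fold ratio with a 95% interval of 0.759-fold to 1.51-fold. Its sign turned to -0.04 without DMSO replicate 2 and to -0.02 without EET replicate 3.

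The gene mpx encodes myeloperoxidase, the haem enzyme of neutrophil granules, and had 4 probe sets, numbered here from the brightest to the dimmest. Probe set 1 (Dr.9478.3.S1_a_at) read 5.02, 5.01 and 5.17 in DMSO and 5.28, 5.04 and 5.43 in EET. EET replicate 2 lay within the DMSO range and the other EET arrays above it. Between the groups the log2 difference was 0.18 ± 0.14 (adjusted p = 0.932), a 1.13-fold ratio with a 95% interval of 0.892-fold to 1.44-fold. It was 0.09 without EET replicate 3 and 0.28 without EET replicate 2.

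Probe set 3 (Dr.9478.4.S1_at) held the largest difference among the 14 member probe sets. It read 2.56, 3.16 and 2.64 in DMSO and -0.81, -0.82 and 0.76 in EET. Every EET array was at least 1.80 below every DMSO array, and 2 of the 3 EET arrays were below 0, where a signal is not known to be above background. The log2 difference was -3.08 ± 0.49 (95% interval -4.30 to -1.86, unadjusted p = 0.0011), which did not pass over all probe sets (adjusted p = 0.535). It was the 29th smallest p of the 15502, and 3 probe sets, itself included, had a difference this far below 0. Without EET replicate 3 the difference was -3.60 (adjusted p = 0.17), in the pair of replicate 3 arrays it was -1.88, and with log2(2^value + 32), which compresses low levels, it was -0.24 (adjusted p = 0.618).

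The other mpx probe sets differed less, and not all in the same direction. Probe set 2 (Dr.9478.4.S1_a_at), which the annotation ties to the same GenBank record as probe set 3, read 3.96, 3.77 and 3.36 in DMSO and 3.84, 4.32 and 5.17 in EET. EET replicate 1 lay inside the DMSO range and EET replicate 3 stood 0.85 above the next array. The log2 difference was 0.75 ± 0.38 (adjusted p = 0.930), on the opposite side of 0 from probe set 3, and 0.38 without EET replicate 3. Probe set 4 (Dr.9478.2.S1_at) read 1.47, 0.29 and 2.16 in DMSO and 0.90, 0.05 and 1.4996 in EET, with overlapping groups and a difference of -0.49 ± 0.60 (adjusted p = 0.95), which was -0.06 without DMSO replicate 3 and -0.999 without DMSO replicate 2. In the platform's naming, a probe set ending in _a_at matches several transcripts of 1 gene and a plain _at set is designed for a single one. Across the 6 arrays probe set 3 correlated at -0.37 with probe set 1, at -0.41 with probe set 2 and at 0.39 with probe set 4, and probe sets 1 and 2 correlated at 0.55.

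A probe set annotated to cyp1a, the cytochrome P450 gene of the response to aromatic hydrocarbons, carries the same sequence cluster name, Dr.9478, as the 4 annotated to mpx. It read 5.12, 4.88 and 4.74 in DMSO and 5.19, 5.43 and 4.998 in EET, with a log2 difference of 0.29 ± 0.17 (adjusted p = 0.932). The groups overlapped, since EET replicate 3 was below DMSO replicate 1. Its correlation over the 6 arrays was -0.16 with mpx probe set 1, 0.35 with probe set 2, -0.78 with probe set 3 and -0.62 with probe set 4. Which gene each probe set of this cluster measures is uncertain.

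**Figure D3:**
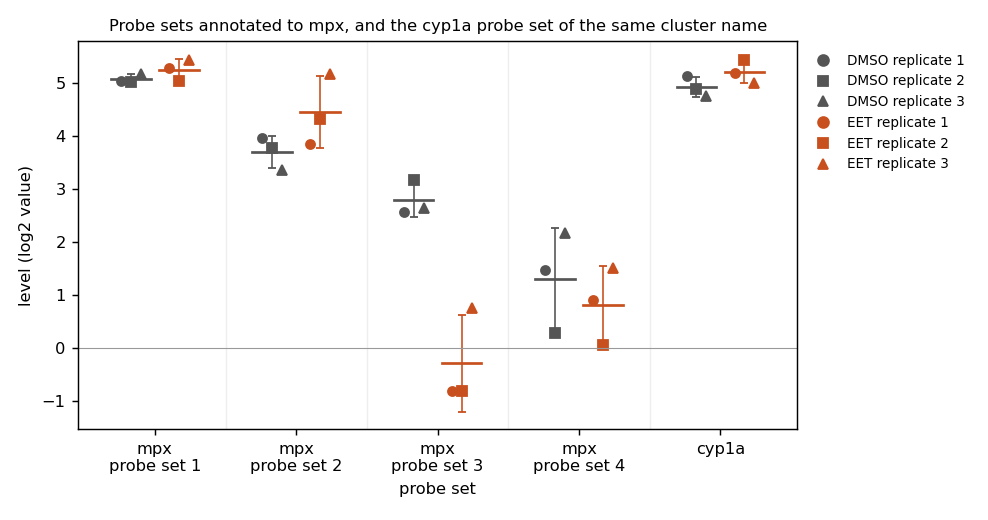
Level (log2 value, vertical axis) in each array of the 4 probe sets annotated to mpx and of the cyp1a probe set with the same cluster name. Symbols mark arrays, horizontal lines the group means and bars the SD (n = 3). At probe set 3 the EET arrays, at -0.82 to 0.76, lie below the DMSO arrays, at 2.56 to 3.16, while at probe set 2 the EET mean lies above the DMSO mean.

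The oxidase gene ncf1 encodes p47phox, the cytosolic organiser of the phagocyte NADPH oxidase. Its level was 3.11, 3.19 and 3.44 in DMSO and 3.32, 2.89 and 2.63 in EET. EET replicates 2 and 3 lay below all DMSO arrays and EET replicate 1 among them. The oxidase gene thus differed by -0.30 ± 0.21 on the log2 scale (adjusted p = 0.932). This was -0.14 without EET replicate 3, -0.04 without both replicate 3 arrays and -0.48 without EET replicate 1. Of 8 other oxidase genes listed, 2 were measured here, and at their brightest probe sets both overlapped between groups. These were cyba, which encodes the small membrane subunit, at 0.06 ± 0.20 (adjusted p = 0.985), and ncf4, which encodes p40phox, at 0.02 ± 0.19. A second cyba probe set, slightly dimmer, read 4.03, 4.25 and 4.43 in DMSO and 4.69, 4.58 and 4.51 in EET, without overlap, and differed by 0.36 ± 0.14 (unadjusted p = 0.0459), which did not pass (adjusted p = 0.930). Both cyba probe sets and ncf4 were below the median level.

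The phosphatase gene ptpn6 encodes SHP-1, which dampens signalling from cytokine and immune receptors in blood cells. Its level was 3.61, 3.62 and 3.799 in DMSO and 4.05, 3.42 and 3.75 in EET, so that EET held both the highest and the lowest array. EET minus DMSO was 0.06 ± 0.19 on the log2 scale (adjusted p = 0.983), and -0.09 without EET replicate 1.

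Both actin-binding genes were above the median level. The gene lcp1 encodes L-plastin, which bundles actin filaments in leukocytes, and read 5.10, 5.36 and 5.54 in DMSO and 5.50, 5.44 and 5.66 in EET. DMSO replicate 1 was the lowest array and DMSO replicate 3 lay among the EET arrays. The log2 difference was 0.20 ± 0.15 (adjusted p = 0.932), a 1.15-fold ratio with a 95% interval of 0.887-fold to 1.49-fold, and it was 0.08 without DMSO replicate 1 and 0.30 without DMSO replicate 3. The gene coro1a encodes coronin 1A, an actin regulator of migrating leukocytes, and its brighter probe set read 5.93, 5.69 and 5.75 in DMSO and 5.84, 5.63 and 5.82 in EET. Replicate 2 was the lowest array of each group and the group ranges nearly coincided. The log2 difference was -0.02 ± 0.12 (adjusted p = 0.988), with a ratio interval of 0.800-fold to 1.21-fold, and its sign turned to 0.05 without DMSO replicate 1 and 0.04 without EET replicate 2. The other coro1a probe set read 5.36, 5.55 and 5.24 in DMSO and 5.35, 5.32 and 5.30 in EET, all EET arrays within the DMSO range, and differed by -0.06 ± 0.12 (0.02 without DMSO replicate 2). Over the arrays both coro1a probe sets correlated at -0.18, so they did not vary together.

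The 9 genes did not all vary together over the arrays. Among the 36 pairs of the 9 genes the Pearson correlation over 6 arrays ran from -0.88 to 0.94 with a median of 0.13, and 21 pairs were above 0. The values share arrays and scaling, and these correlations are descriptions. The highest was between cebpa and mpx probe set 1, and the correlation of cebpa with lyz was 0.83, while spi1b and mpx probe set 1 gave the lowest. Among cebpa, mpx, lyz and lcp1, all at or above the median level, the correlations ran from 0.59 to 0.94. Those of the brighter coro1a probe set, also at that level, with these genes ran from -0.33 to 0.40. Most pairs below 0 held spi1b, csf1ra or ncf1, which were below the median level.

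The leading principal component over brighter probe sets (44.0% of variance) set DMSO replicate 3 and EET replicate 3 apart from the remaining 4 arrays. In 5 of the 9 genes, cebpa, mpx, lyz, ptpn6 and lcp1, replicate 3 was above the mean of replicates 1 and 2 in both groups, beside 28.8% of all genes. In 1, spi1b, it was below in both, beside 28.5% of all genes. Of 43 other myeloid genes, described further below, 27.9% were above in both groups and 27.9% below in both. For lyz replicate 3 was higher by 0.45 in DMSO and 0.36 in EET, and for lcp1 by 0.31 and 0.18. The distances were 0.15 and 0.27 for mpx probe set 1, 0.16 and 0.18 for cebpa, and 0.18 and only 0.01 for ptpn6. In lyz and cebpa these distances exceeded the EET minus DMSO difference. Within replicate 3 alone the median EET minus DMSO difference of the 9 genes was 0.04, and over the other 4 arrays 0.12. The replicate 3 arrays were singled out because they stood apart, so no test of them is given.

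**Figure D4:**
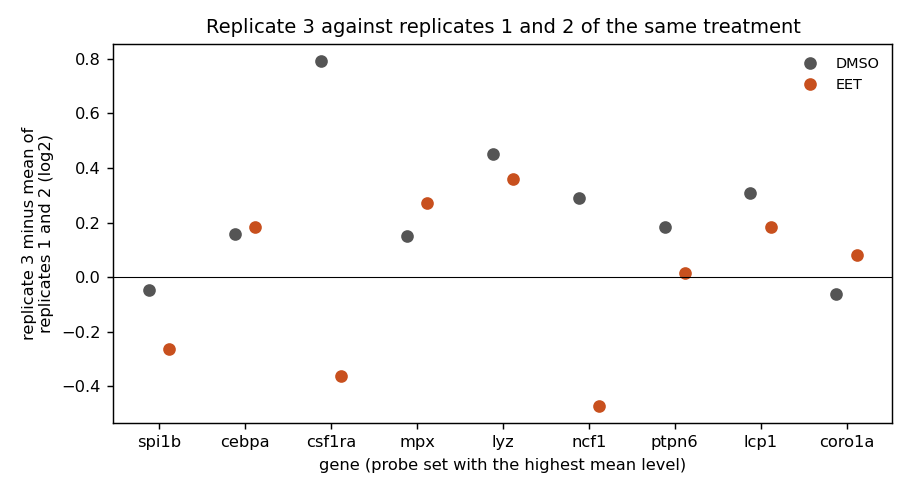
Distance of replicate 3 from the mean of replicates 1 and 2 of the same treatment (log2, vertical axis) for each of the 9 genes at its brightest probe set, in DMSO and in EET, 1 array against 2 for each point. Both points lie above 0 for cebpa, mpx, lyz, ptpn6 and lcp1, and lie on opposite sides for csf1ra, ncf1 and coro1a.

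The mean level of the 5 genes at or above the median level was 6.37, 6.31 and 6.54 in DMSO and 6.49, 6.39 and 6.66 in EET. Among 5313 other genes at or above the median level, those most like this mean over the 6 arrays were add3a, an adducin gene of the membrane skeleton (r = 0.992), the kinase gene stk40 (0.990), agpat2, an enzyme gene of phospholipid and triglyceride synthesis (0.984), ndufs5, a gene of respiratory complex I (0.983), and rrm2l (0.983). With 6 arrays, 17 genes exceeded 0.95. In all 5 of these genes the groups overlapped, with log2 differences of 0.07 to 0.20, and replicate 3 was above the mean of the other 4 arrays by 0.13 to 0.44. They were picked for likeness to a mean that was highest at replicate 3 in both groups. The overlap, the sign of the difference and the side of replicate 3 thus follow from the choice.

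Other genes listed for the same cells, from lists that hold 103 genes besides the 9, gave 43 measured genes. These are not known to report leukocytes alone. The mean levels of ctsla, 11.77, and cotl1, 10.46, were at percentiles 99.1 and 98.2 of all probe sets. Limma called 0 of them, 3 had an unadjusted p under 0.05, beside 4.66% of all genes by their brightest probe set, and 6 did not overlap between groups, beside 12.1% of all genes. EET was above DMSO in 23 of the 43 and below it in 20, and the median log2 difference was 0.03. Granule, lysosome and secreted genes had a median of 0.14, with 12 higher and 4 lower of 16. Receptors, ligands and adaptors had one of -0.26, with 1 higher and 5 lower of 6. Of all genes, 51.4% were higher. Only 10 of these 16 and 3 of these 6 genes were at or above the median level. The medians were -0.02 over 7 transcription factor genes and -0.04 over 12 leukocyte signalling and actin genes.

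The 3 genes with an unadjusted p under 0.05 were all among the granule, lysosome and secreted genes. The metalloproteinase gene mmp9, whose product cuts extracellular matrix, read 4.16, 4.32 and 4.71 in DMSO and 5.10, 5.63 and 5.36 in EET, all EET arrays above all DMSO arrays, with a log2 difference of 0.97 ± 0.21 (adjusted p = 0.691). The complement gene c1qc, which encodes a chain of C1q, read 0.998, 0.25 and 1.57 in DMSO and 2.27, 2.90 and 1.57 in EET, where both replicate 3 arrays were equal to 2 decimals. Its log2 difference was 1.31 ± 0.47 (adjusted p = 0.930), but EET replicate 3 exceeded DMSO replicate 3 by only 0.003. The mean level of c1qc, 1.59, was in the lowest 13.1% of all probe sets, so it is not known to be above background. The progranulin gene grna read 3.44, 3.14 and 3.54 in DMSO and 2.90, 2.60 and 3.11 in EET, all EET arrays below all DMSO arrays. It differed by -0.50 ± 0.18 (adjusted p = 0.930), at a mean level of 3.12, below the median of all probe sets. Relatives of cebpa among the C/EBP genes were read at the brightest probe set of each. EET was higher for cebpd (0.29 ± 0.12, adjusted p = 0.930, no overlap) and cebpb (0.19 ± 0.12, overlapping). It was lower for cebpg (-0.20 ± 0.13, overlapping) and cebp1 (-0.13 ± 0.22, overlapping). A second, dim probe set differed by 0.88 ± 1.09 for cebpd and by -0.31 ± 0.86 for cebp1, both overlapping.

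**Figure D5:**
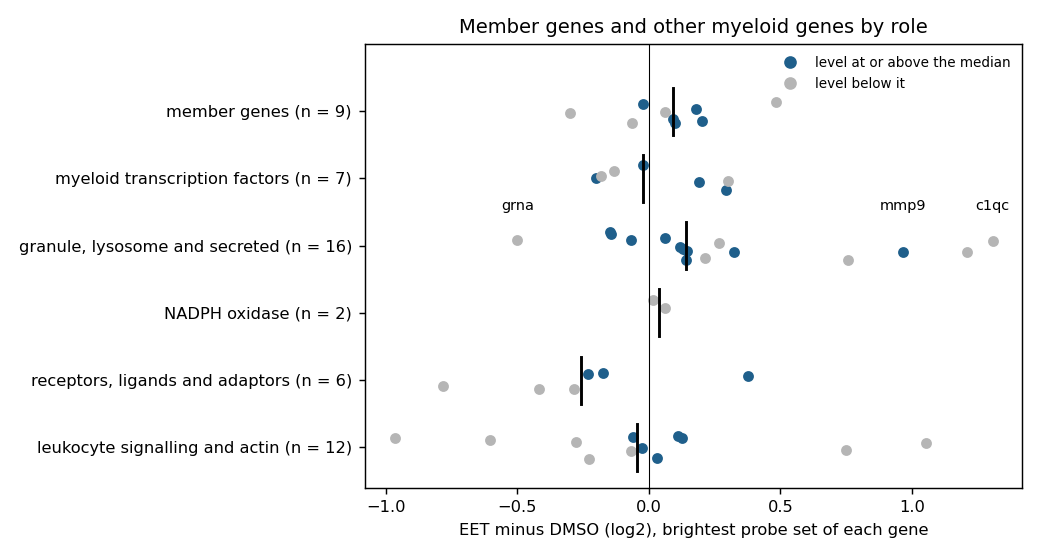
EET minus DMSO difference (log2, horizontal axis) of the 9 member genes and of 43 other myeloid genes by role, at the brightest probe set of each gene. Points are genes, coloured by whether their level was at or above the median of all probe sets, and black bars are the medians of each row, at 0.09 for the member genes. The 3 named genes had an unadjusted p under 0.05, and 0 genes passed after adjustment.

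Relatives of the members that are not restricted to leukocytes were read beside them, at the brightest probe set of each. Of 20 listed, 10 were measured, 7 above DMSO and 3 below it, with 0.07 as their median and 0 called. The coronin genes coro1b and coro1ca differed by 0.00 ± 0.13 and -0.12 ± 0.21, and the dim coro6 by -1.17 ± 0.71. The SHP-2 genes ptpn11a and ptpn11b, related to ptpn6, differed by -0.01 ± 0.09 and 0.03 ± 0.14, and the plastin gene pls1, also dim, by 0.61 ± 0.36. The ETS factor genes elf1, ets1 and ets2 differed by 0.13 ± 0.11, 0.11 ± 0.29 and 0.32 ± 0.39. Second, dimmer probe sets differed by 0.54 ± 0.37 for ets1, -0.03 ± 0.18 for coro1ca and -0.03 ± 0.13 for ptpn11a, all overlapping. The receptor tyrosine kinase gene kita, of the same receptor family as csf1ra, read 3.06, 3.18 and 2.84 in DMSO and 3.48, 3.70 and 3.29 in EET, without overlap, and differed by 0.47 ± 0.16 (unadjusted p = 0.0281, adjusted p = 0.930). Its mean level, 3.26, was below the median of all probe sets.

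The pools also held other blood cells and vessels, and markers of these were read in the same fit. These markers are not known to report such cells alone. Red blood cells were represented by 13 genes, 7 above DMSO and 6 below it, whose median was 0.01, 2 of them without overlap, beside the same 12.1%. The embryonic globin gene hbae3 read 12.76 to 12.98 over the 6 arrays. The smallest p were those of the haem synthesis gene fech, below the median level, at -0.44 ± 0.16 (adjusted p = 0.930) and of slc4a1a, which encodes the anion exchanger of the red cell membrane, at 0.17 ± 0.14. Stem and progenitor cells were represented by 8 genes, 4 above DMSO and 4 below it, whose median was -0.02. The 4 above DMSO all overlapped, at differences of 0.02 to 1.21. In 3, all lower in EET, the groups did not overlap, beside 12.1% of all genes. These were gata2a at -0.37 ± 0.09 (adjusted p = 0.878), cbfb, below the median level, at -0.41 ± 0.12 (adjusted p = 0.930) and meis1b, named after its values were seen, at -0.16 ± 0.10. The 6 thrombocyte, mast cell and lymphoid genes had a median of 0.30, with itga2b at 1.83 ± 1.07 and rag1 at -1.12 ± 0.68, both dim and overlapping. The 6 endothelial genes had a median of 0.05, with tek at -1.12 ± 0.66 and tie1 at 0.28 ± 0.17, both below the median level and overlapping. Over these 4 lists 0 genes were called. As a measure of RNA quality, the actin control signal from the 3' end exceeded that from the 5' end by 1.74 to 2.01 in DMSO and 2.14 to 2.30 in EET, and the GAPDH control did so by 0.88 to 1.02 and 0.94 to 1.27. The part of RNA quality in the differences above, those of mpx probe set 3, mmp9 and grna included, was not tested.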

How the data were processed

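Per the labels' protocols, biotin-labelled cRNA was made from total RNA of pooled whole embryos and hybridised to 1-colour arrays. The authors' deposited table gives 1 log value per probe set and array, read here as log2. Background correction, probe summary and scaling are not given in the sources used here, and neither is the base. A natural log was set aside because the maximum of 13.63 would then stand for 829980, above the 65535 a scanner records. Since the scaling is not known, this does not settle the base. Hybridisation controls, added at known concentrations, rose by 0.833 per doubling, where a natural log would give 0.693, and do not settle it either. The fold ratios rest on the reading as log2. Values ran from -3.87 to 13.63, with array medians of 4.81 to 4.82. There are no detection calls, so a low value is not known to be above background. The number of arrays limits the precision.

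Of 15617 probe sets, 115 controls were left out. Genes were named from the platform annotation: 10795 probe sets had 1 symbol, 135 several and 4572 none. Symbols were updated by Entrez identifier through RefSeq (GRCz12tu), which changed 1. No coordinates are printed, since the annotation is tied to no build. The brightest probe set, by mean over 6 arrays, stood for each of 8793 genes.

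The test was limma 3.58.1 (R 4.3.3), fitting treatment alone with lmFit and eBayes, 2-sided. P-values were adjusted by Benjamini-Hochberg across the 15502 probe sets, and an adjusted p under 0.05 was a call. The fit was also run on simulated data with independent noise in each array. These lack the deviation that the replicate 3 arrays share, so they do not show how the fit deals with it. Tried besides were other scalings (quantile, median), 2 filters on dim signals, log2(2^value + 32), eBayes with trend and robust, weighted arrays, a block for the replicate number, a batch term for replicate 3, its omission, omission of each array, an adjusted p under 0.10, and averaging the probe sets of a gene. The 9 members, the other gene lists and the tests were chosen with earlier results of these data known. By rule the text names all member probe sets, the cyp1a probe set of the mpx cluster, other myeloid genes with an unadjusted p under 0.05, relatives of the members, 2 genes of each other cell list by smallest p, and the 5 genes most like the members' mean. The genes cyba, ncf4, cebpd, cebpb, cebpg, cebp1, ctsla, cotl1, hbae3 and meis1b are named besides, after their values were seen.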

Additional observations from a re-analysis of the deposited data

How the results depend on the processing

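The count of called member probe sets was 0 under all 17 alternatives run, with a smallest adjusted p of 0.17, and the count over the other 43 myeloid genes was 0 as well. Over all probe sets, against 0, limma called 1 after median centring, 1 with array weights, 1 at an adjusted p under 0.10, 2 with log2(2^value + 32), 3 with trend and robust, and 6 among the brighter probe sets (0.0774%), none a member; the count was 0 with 1 array left out. The members' median difference of 0.09 lay between 0.03 and 0.14 with 1 array left out and was 0.02 with log2(2^value + 32). Of 212 values of single member probe sets under these alternatives, 8 had the opposite sign, at 5 probe sets close to 0. With 1 array left out these ran from -0.153 to 0.0245 for spi1b probe set 1, -0.0395 to 0.249 for lyz, -0.0935 to 0.221 for ptpn6, -0.0728 to 0.0471 for coro1a probe set 1 and -0.137 to 0.0188 for its other probe set, and spi1b probe set 1 was at 0.0083 without both replicate 3 arrays; the cause was not tested. With the replicate block 0 probe sets were called, and mpx probe set 3 had an adjusted p of 0.842. DMSO and EET arrays of 1 number deviated from their group means with correlations of 0.04, 0.06 and 0.15 in the full table. There each array was closest to its own number. Among the brighter probe sets the same correlations were 0.18, 0.24 and 0.55, but replicate 1 of each group was closest to replicate 2 of the other. The labels name no pairs, so the main fit left the replicate number out and the block was an alternative. Level over background limits csf1ra, both spi1b probe sets, the dimmer mpx probe sets, ncf1 and ptpn6. Outside the members it limits the named genes below the median level, c1qc, grna, kita, ncf4, cyba, cbfb and fech among them.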
